A study of Mus musculus and Homo sapiens with 10 samples.

Results

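Enterocytes sorted from mouse jejunum for a high surface level of Cd73 were compared with those sorted for a middle level, by the DNA double-strand breaks mapped in each. The comparison holds 4 of the 10 libraries of the series, 2 per group, chosen by their labels and by no measured value. Each group is given by its sort alone: Cd73 high, labelled M1 and M2, and Cd73 mid, labelled M1 and M2. A further 2 libraries of Cd73 negative enterocytes entered the fits and are given where they help to read a value. The labels state no strain, age, sex or treatment for any of the groups, and they do not say whether M1 and M2 are separate animals, so a p-value here covers the spread among these libraries alone, and that spread may be technical. The remaining 4 libraries are of human TK6 cells and were not used here.

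Cd73 is the protein made by Nt5e, an enzyme on the cell surface that turns AMP into adenosine. Along the villus, enterocytes mature as they move from the crypt to the tip, and Cd73 is known as a marker that becomes stronger toward the tip. In-suspension BLISS (sBLISS) ligates an adapter to the broken DNA ends of cells in suspension, so that each sequenced fragment begins at a break. Breaks are known to be frequent where genes begin, where topoisomerases release the strain of transcription, and in some very long genes. The method reads DNA and not RNA, so the sorted cells' identity could not be checked by marker expression. Break ends inside a marker gene are no measure of that gene's RNA or protein.

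Depth was lower the higher the level of Cd73. On chromosomes 1 to 19 the Cd73 mid libraries held 4640765 and 5036730 break ends, the high libraries 1485622 and 1240721, and the negative libraries 12730960 and 12286024. Depth and sort therefore run in the same order and cannot be told apart. Levels are given as CPM, counts per 1000000 of those summed over features of that kind and scaled by edgeR's TMM factors, or as EPM, break ends per 1000000 of the library's total on chromosomes 1 to 19. In libraries of sorted cells, fewer cells with a break and fewer breaks per cell cannot be told apart. A gene body is the annotated span of a protein-coding gene in RefSeq for GRCm38, and gene borders are the stretches within 1 kb of either end of it. Unless another test is named, p-values are those of edgeR's quasi-likelihood test with Benjamini-Hochberg adjustment over all features of that kind, and a feature was called at an adjusted p under 0.05.

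The promoters below show how break ends lie at the gene of the sort marker and at 3 genes whose borders gave some of the smallest p-values of the comparison. Each is the RefSeq window of 250 bases before and 50 after an annotated start (GRCm38), written in the direction of the gene, and capitals mark bases at which a Cd73 mid or high library listed a break end. The windows are Nt5e at chr9:88327359-88327658 on the plus strand, Shoc2 at chr19:53944056-53944355 on the plus strand, Prom1 at chr5:44101687-44101986 on the minus strand and Raver1 at chr9:21091950-21092249 on the minus strand.
Nt5e: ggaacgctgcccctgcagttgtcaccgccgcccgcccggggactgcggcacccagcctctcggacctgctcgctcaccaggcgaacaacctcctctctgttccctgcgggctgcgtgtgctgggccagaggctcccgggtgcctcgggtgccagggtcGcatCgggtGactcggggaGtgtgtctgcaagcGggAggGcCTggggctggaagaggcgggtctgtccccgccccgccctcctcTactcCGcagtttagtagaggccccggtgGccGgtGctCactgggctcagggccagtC
Shoc2: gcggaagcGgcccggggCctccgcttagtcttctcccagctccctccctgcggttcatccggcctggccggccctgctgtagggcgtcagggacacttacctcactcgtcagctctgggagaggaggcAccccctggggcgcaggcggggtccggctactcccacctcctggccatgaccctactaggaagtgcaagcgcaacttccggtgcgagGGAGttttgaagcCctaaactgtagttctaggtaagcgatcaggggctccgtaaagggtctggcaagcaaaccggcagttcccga
Prom1: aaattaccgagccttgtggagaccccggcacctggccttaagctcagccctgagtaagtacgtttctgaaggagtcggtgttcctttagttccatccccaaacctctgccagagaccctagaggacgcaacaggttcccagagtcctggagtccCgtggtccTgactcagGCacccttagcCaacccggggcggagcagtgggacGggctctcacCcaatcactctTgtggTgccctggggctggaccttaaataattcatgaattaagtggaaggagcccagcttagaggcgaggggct
Raver1: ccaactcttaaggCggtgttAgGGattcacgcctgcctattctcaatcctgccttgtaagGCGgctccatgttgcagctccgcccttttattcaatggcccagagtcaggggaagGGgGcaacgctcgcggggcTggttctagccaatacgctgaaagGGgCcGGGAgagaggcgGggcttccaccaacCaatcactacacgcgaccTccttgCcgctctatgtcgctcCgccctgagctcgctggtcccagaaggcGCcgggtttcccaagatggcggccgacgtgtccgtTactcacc
The Nt5e window held 7 break ends in each mid library and 6 and 1 in the high libraries. In the Shoc2 window the mid libraries listed 13 and 20 break ends, several at the same few bases, and both high libraries listed 0, which allows up to 3 by counting error alone. Prom1 had 4 and 5 in mid and 1 and 0 in high. Raver1 had 17 and 29 in mid and 2 in each high library, spread over 26 marked bases. The mid libraries held more break ends in all, so these raw counts are not levels. The letters CG occurred 23, 19, 10 and 22 times in the 4 windows, against a median of 14 over 16456 promoters, 95.04% of which held CG at least once.

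Nt5e itself carried similar levels of break ends in both sorts. Its gene body (chromosome 9, 88327609 to 88372089) held 166 and 183 break ends in the Cd73 mid libraries and 66 and 39 in the high libraries. These are 73.4 and 70.1 CPM in mid and 91.8 and 66.5 CPM in high, or 71.8 ± 2.36 and 79.1 ± 17.9 CPM (mean ± SD, n = 2 each). The high libraries lay on either side of both mid libraries. By edgeR's quasi-likelihood test the log2 fold change, high over mid, was 0.16 (SE 0.189, 95% interval -0.21 to 0.53, adjusted p = 0.9997), and without Cd73 high replicate 1 it was -0.11. Its borders had 114 and 96.9 CPM in mid and 141 and 67.5 CPM in high, again overlapping, with a log2 fold change of 0.05 (SE 0.364) that turned negative without Cd73 high replicate 1 (-0.66) or without Cd73 mid replicate 2 (-0.08). Most of the border break ends lay at the start of the gene, 35 and 43 of them in mid and 15 and 5 in high.

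Break ends gathered at gene starts in every library, and the mid libraries differed from each other there by more than their mean did from that of the high libraries. Around 16456 gene starts with a known strand, the highest 200 base step lay directly at the start in all 4 libraries. Its density was 2.25 and 3.04 EPM per kb and gene in Cd73 mid and 2.27 and 2.02 in Cd73 high. Relative to the level 4 to 5 kb away, this peak was 4.46-fold and 5.62-fold in mid and 4.49-fold and 4.05-fold in high. The high replicate 1 curve ran on top of that of mid replicate 1, and mid replicate 2 stood above both. At gene ends no such peak was seen. The highest step there was between 1.09-fold and 1.11-fold of its flanks in the 4 libraries.

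**Figure D1:**
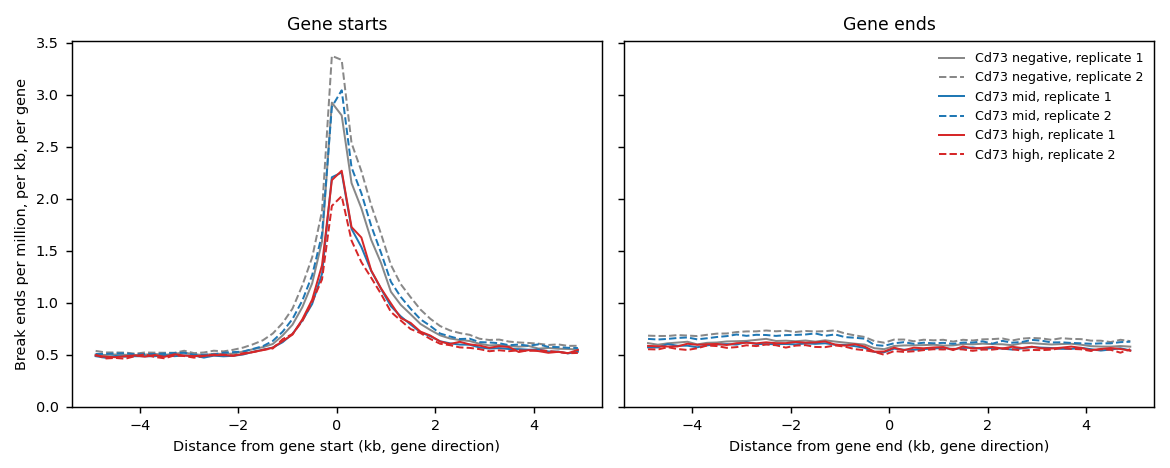
Density of break ends around gene starts (left) and gene ends (right) in 200 base steps, in EPM per kb and gene, against the distance in kb in the direction of the gene; each line is 1 library, coloured by sort, solid for replicate 1 and dashed for replicate 2. At gene starts the curves of mid replicate 1 (peak 2.25) and high replicate 1 (peak 2.27) coincide, mid replicate 2 reaches 3.04, and gene ends show no peak.

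Shares of break ends by kind of region differed little between the sorts. Gene bodies held 48.6% and 49.8% of break ends in Cd73 mid and 48.4% and 47.6% in Cd73 high, or 49.2% ± 0.844 and 48.0% ± 0.575 (mean ± SD, n = 2 each). The high libraries were both lower, by little in the closest pair, and the exact permutation test (two-sided) gave p = 0.333, the smallest that 2 against 2 libraries allow. Stretches within 1 kb of gene borders held 6.98% and 8.69% in mid and 7.06% and 6.59% in high. Here the groups overlapped (7.84% ± 1.21 and 6.83% ± 0.334, exact permutation p = 0.667). Gene starts alone took 4.16% and 5.43% in mid and 4.22% and 3.89% in high, and gene ends 1.72% and 1.91% in mid and 1.74% and 1.66% in high. In all libraries density within 1 kb of starts was higher at promoters with more CG. Of 4 classes of 4114 promoters each, the class with fewest CG had 0.384 and 0.395 EPM per kb and gene in mid and 0.376 and 0.375 in high. The class with most CG had 2.28 and 3.07 in mid and 2.39 and 2.08 in high. Only in the class with fewest CG did the groups not overlap, with the high mean at 0.966 of the mid mean.

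No gene body passed the threshold. Of 17234 gene bodies tested, 0 had an adjusted p under 0.05 by edgeR (0% called), 766 had an unadjusted p under 0.05, and DESeq2 called 0, with 238 under an unadjusted p of 0.05. The share under an unadjusted 0.05 was 4.44%. Both high libraries lay above both mid libraries in 2865 gene bodies (16.6%) and below them in 2971 (17.2%). The median log2 fold change was 0.00081 and 90% of genes lay between -0.67 and 0.49. The median gene body held 71.5 break ends per mid library and 19 per high library, which set the precision. For 67.5% of gene bodies the 95% interval of the fold change lay within 2-fold either way, and for 30.9% within 1.5-fold. In the other genes the interval reached past 2-fold in one direction or the other, so a difference of that size was not excluded there.

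**Figure D2:**
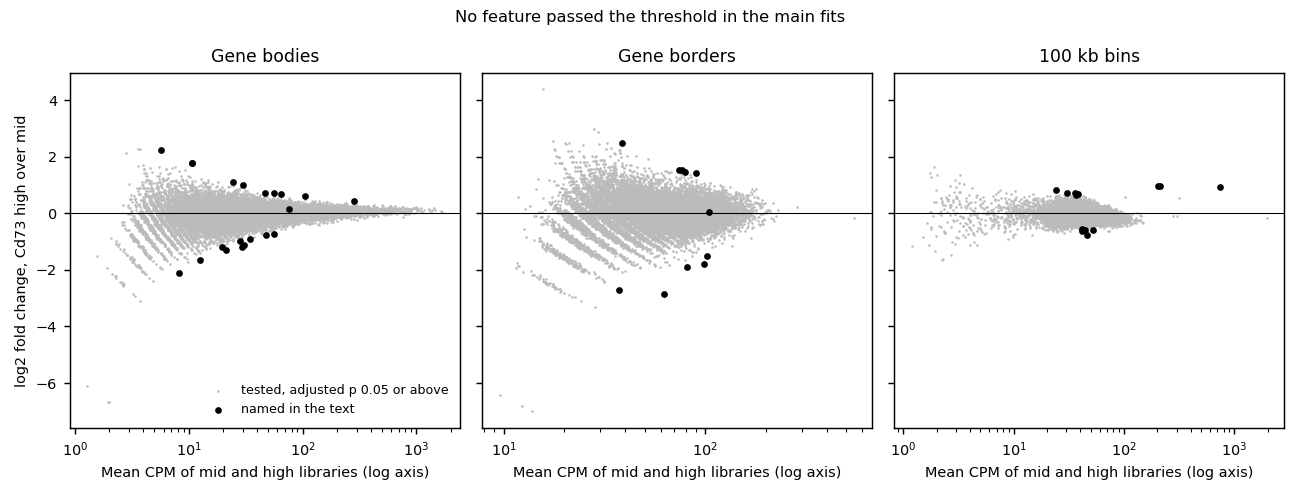
Log2 fold change of break ends, Cd73 high over mid, against the mean CPM of the mid and high libraries (log axis) for gene bodies, gene borders and 100 kb bins; grey points are all tested features and black points those named in the text. The points narrow toward 0 as CPM grows, none was called, and the 3 bins at 0.92 to 0.97 with the most CPM among the black points stand apart from the rest.

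The genes with the smallest p-values whose groups did not overlap are named here by rule, and none passed the test. Among the higher ones, Lrrc2, a leucine-rich repeat gene on chromosome 9, had 19.5 and 20.3 CPM in Cd73 mid and 36.2 and 44.3 CPM in high. Both high libraries were well above both mid libraries (log2 fold change 1.002, SE 0.290, adjusted p = 0.9997, as for all 20 genes named here). Rpap3, which encodes a cofactor of the HSP90 chaperone in the assembly of RNA polymerase II, had 34.5 and 35.6 CPM in mid and 61.2 and 54.5 in high. Echdc1, an enzyme of acyl-CoA repair whose span overlaps another gene, had 38.1 and 46.0 CPM in mid and 64.0 and 76.7 in high. Shc4, a signalling adaptor that also overlaps another gene, had 90.7 and 77.005 CPM in mid and 111 and 145 in high. In these 3 genes too the lower high library exceeded the higher mid library. Serpina3j, of the serine protease inhibitor family, had 4.87 and 4.98 CPM in mid and 20.9 and 11.9 in high, but these are 7 to 15 break ends per library. Zfp959, a zinc finger gene, Keg1, Gm31309 and Gm12880 complete the group together with Cdk5rap2, and their log2 fold changes lay between 0.42 and 2.25. Gm31309 passed edgeR's filter on low counts only with the high libraries counted, so its value is not read as a result.

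Among these genes Cdk5rap2, which encodes a protein of the centrosome, held the most break ends, not scaled by gene length. Its difference lay in a single window. Its body (chromosome 4, 70216855 to 70410435) held 259 and 228 CPM in Cd73 mid and 308 and 346 CPM in high, a log2 fold change of 0.42 (SE 0.135). Of its 585 and 596 break ends in mid, 26.7% and 33.1% fell in the 1 kb from 70378001 to 70379000, and of the 221 and 203 in high, 54.8% and 52.2% did. Outside that window the gene had 92.4 and 79.2 EPM in mid and 67.3 and 78.2 in high. On this scale, which has no TMM factors, both high libraries lay below both mid libraries, by little in the closest pair. The whole body on the same scale had 126 and 118 EPM in mid and 149 and 164 in high. The rest of the gene was not compared in CPM. With each position counted once the log2 fold change of the whole body was 0.10.

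Among the genes lower in Cd73 high, Nans, which makes sialic acid, had 35.8 and 44.8 CPM in mid and 15.3 and 20.4 CPM in high. This was the smallest p of all gene bodies (0.000108 before adjustment, log2 fold change -1.20, SE 0.307, 95% interval -1.80 to -0.60). Zmiz2, a transcriptional coactivator, had 36.7 and 46.0 CPM in mid and 18.1 and 20.4 in high. Pld2, a phospholipase D, had 28.3 and 32.2 CPM in mid and 11.1 and 13.6 in high. The high values of these 3 genes rest on 8 to 13 break ends per library. Sema3f, a secreted guidance protein, had 61.1 and 80.5 CPM in mid and 54.3 and 29.0 in high, so its high libraries differed from each other by more than the gap between the groups. Inppl1, a lipid phosphatase, Zc3h11a, a zinc finger protein, and Gys1, a glycogen synthase, each overlap another gene, and with Kctd12, Nupr1l and Fam171a2 they had log2 fold changes between -2.11 and -0.78. None of the 20 genes changed direction or was called under any of the alternatives that could be computed for it.

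**Figure D3:**
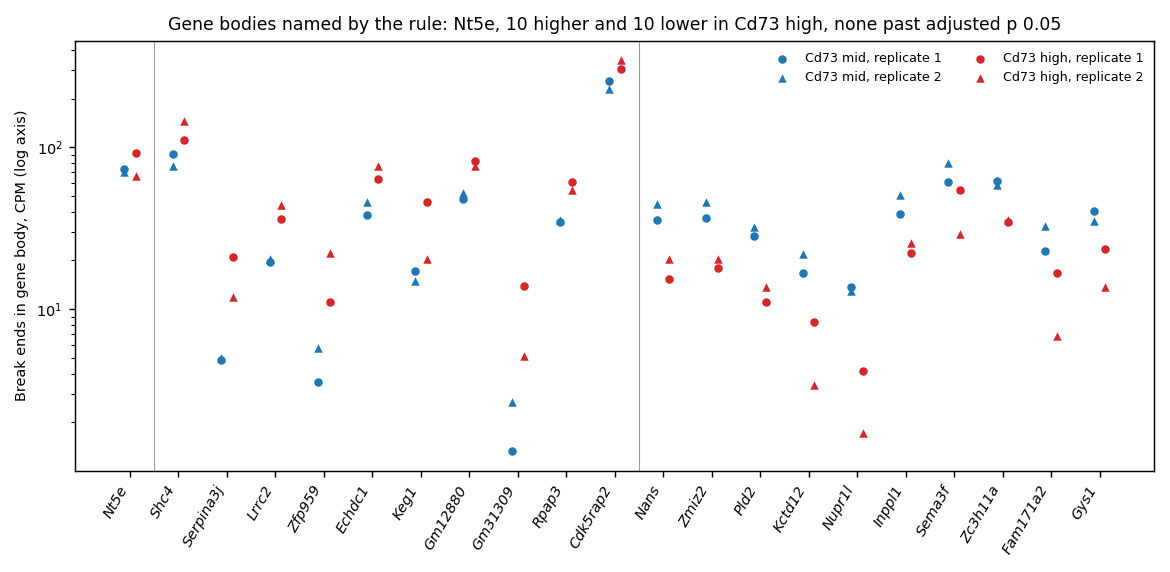
Break ends per gene body in CPM (log axis) for Nt5e, the 10 gene bodies higher and the 10 lower in Cd73 high with the smallest p-values among those whose groups do not overlap; blue points are the mid and red points the high libraries, circles replicate 1 and triangles replicate 2. Cdk5rap2 lies far above the rest at 228 to 346 CPM, and Nt5e has its mid libraries between its high libraries.

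At gene borders 0 of 15914 genes passed the threshold by edgeR (0% called), with 770 at an unadjusted p under 0.05, and DESeq2 called 0, with 336 at an unadjusted p under 0.05. Both high libraries were above both mid libraries at 2698 genes (17%) and below them at 3061 (19.2%). The median borders held 24 break ends per mid library and 5.5 per high library, and for 17.7% of genes the 95% interval of the fold change lay within 2-fold. Gene starts and gene ends tested apart gave 0 calls each by edgeR, with 493 and 234 at an unadjusted p under 0.05, and no other tool was run on these.

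The borders of Shoc2, which encodes a scaffold of RAS signalling, came closest to the threshold. They had 117 and 103 CPM in Cd73 mid and 17.6 and 11.2 CPM in high, from 41 and 49 break ends against 2 and 1. The log2 fold change was -2.86 (SE 0.605, 95% interval -4.08 to -1.65, adjusted p = 0.243). Over the alternatives its adjusted p ran from 0.0809 to 0.9994 and its log2 fold change from -3.29 to -0.79, the latter with 5 kb on each side of the gene's ends. Shoc2 overlaps another gene, so its break ends could not be assigned to it alone. The difference was at the gene start, with 37 and 42 break ends in mid and 1 in each high library, where the promoter printed above has its marked bases. Prom1, which encodes the stem and progenitor cell marker CD133, had 160 and 147 CPM in mid and 52.8 and 33.7 CPM in high (log2 fold change -1.78, SE 0.425, adjusted p = 0.823). All but 3 of the break ends of each mid library there lay at its start. Raver1, an RNA-binding protein, had 123 and 179 CPM in mid and 61.6 and 45.0 in high, with break ends at both its start and its end. Heatr5b, of endosomal traffic, had 114 and 143 CPM in mid and 44.0 and 22.5 in high. Phf14, a chromatin reader, had 71.3 and 61.1 CPM in mid, and in high it had 2 and 0 break ends.

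Of the borders higher in Cd73 high, those of Wnt7b, a Wnt ligand, had 39.9 and 37.9 CPM in mid and 106 and 124 CPM in high (log2 fold change 1.55, SE 0.417, adjusted p = 0.972). Sacm1l, a phosphoinositide phosphatase, had 39.9 and 37.9 CPM in mid and 141 and 78.7 in high. Kpna3, a nuclear import receptor, had 48.5 and 35.8 CPM in mid and 88.0 and 146 in high. Elk3, an ETS family transcription factor that overlaps another gene, had 54.2 and 46.3 CPM in mid and 158 and 101 in high. Gm31309 was named both for its body and for its borders, which in so short a gene share bases. Its borders too passed edgeR's filter on low counts only with the high libraries counted, so their value is not read as a result. Each of these values rests on 18 break ends or fewer per high library.

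None of the 22 gene lists held a gene that passed edgeR's test, in the fit as described or in 11 alternatives with DESeq2 among them. Each list held between 0 and 3 members at an unadjusted p under 0.05 in each direction. Break ends in the 14 villus tip genes, which are known to be expressed most at the top of the villus, had a median log2 fold change of 0.04, with 8 positive and 6 negative. Without Cd73 mid replicate 1 the median was -0.060 with 5 positive, and without mid replicate 2 it was 0.12. Ada, which deaminates adenosine, had 49.6 and 50.2 CPM in Cd73 mid and 51.5 and 52.8 in high. Apoa4, a chylomicron apolipoprotein, had 10.2 and 13.4 in mid and 16.7 and 17.0 in high. Enpp3, an ectoenzyme that hydrolyses nucleotides, had 90.3 and 91.2 in mid and 76.5 and 85.2 in high. Klf4, a zinc finger transcription factor of mature epithelium, stood at 22.6 and 29.1 in mid and 18.1 and 8.52 in high (log2 fold change -0.92, SE 0.361). Groups did not overlap in 5 of the 14, 3 higher and 2 lower, against 16.6% and 17.2% of all genes.

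The 38 tested genes of purine metabolism, the pathway to which Cd73 belongs, had a median log2 fold change of -0.0025, with 18 positive and 20 negative, and it lay between -0.069 and -0.017 when a library was left out, lowest without Cd73 mid replicate 1. Of them 8 were higher and 7 lower without overlap (16.6% and 17.2% over all genes), and 0 had an unadjusted p under 0.05. Adk, which phosphorylates adenosine, had 428 and 356 CPM in Cd73 mid and 406 and 441 in high. The adenosine receptor gene Adora2b had 29.2 and 24.5 in mid and 30.6 and 27.3 in high. Nt5c2, a cytosolic nucleotidase that overlaps another gene, was the lowest by p, with 175 and 190 in mid and 153 and 155 in high (log2 fold change -0.25, SE 0.151). Summed over the list, break ends came to 2150 and 2142 CPM in mid and 2094 and 2128 in high. This sum was 0.984 of that in mid.

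Genes of nutrient uptake had medians whose size or sign depended on single libraries. The counts without overlap in these lists stand against 16.6% of all gene bodies higher and 17.2% lower. Of 15 genes of sugar digestion and transport, 1 was higher and 5 were lower without overlap, with a median of -0.05 that was 0.066 without Cd73 high replicate 1, -0.27 without high replicate 2, -0.12 without mid replicate 1 and -0.15 without mid replicate 2. Slc2a5, the fructose transporter, had 34.95 and 57.1 CPM in Cd73 mid and 29.2 and 27.3 in high (log2 fold change -0.71, SE 0.264). Of 21 genes of peptide digestion and transport, 2 were higher and 7 lower, with a median of 0.01 that turned negative without Cd73 high replicate 1 (-0.038), high replicate 2 (-0.079) or mid replicate 1 (-0.098). The brush border peptidase Anpep had 55.3 and 58.2 in mid and 44.5 and 30.7 in high. Ace, another peptidase of the brush border, had 38.1 and 48.7 in mid and 23.7 and 34.1 in high. These 2 do not stand for the list, in which 12 genes were positive, up to a log2 fold change of 0.22, and 9 negative. Of 32 genes of fat absorption, 6 were higher and 7 lower, with a median of -0.01 that was -0.089 without Cd73 high replicate 2, -0.041 without mid replicate 1, -0.0060 without mid replicate 2 and -0.0022 without high replicate 1. Fabp1, a fatty acid binding protein, had 10.6 and 4.98 in mid and 15.3 and 20.4 in high (log2 fold change 1.20, SE 0.450). The Fabp1 values rest on 11 to 24 break ends per library compared. Dgat1, which makes triglyceride, had 23.0 in each mid library and 33.4 and 34.1 in high. Slc27a4, of the same list, went the other way, with 31.0 and 37.2 in mid and 18.1 and 30.7 in high (log2 fold change -0.52, SE 0.295).

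Crypt, cell cycle and other gene lists are given by the same counts, to be read against 16.6% of all gene bodies higher and 17.2% lower without overlap, and no list was tested against other genes. Of 22 crypt stem cell genes 3 were higher and 4 lower. By sign 9 were positive and 13 negative, and their log2 fold changes had the median -0.023. Ephb3, a receptor tyrosine kinase, had 36.3 and 48.7 CPM in Cd73 mid and 25.05 and 25.6 in high (log2 fold change -0.76). Of 40 proliferation genes 4 were higher and 9 lower. By sign 19 were positive and 21 negative, and the median was -0.012. Cdc6, which loads the replicative helicase, had 30.5 and 26.1 in mid and 12.5 and 13.6 in high (log2 fold change -1.11, SE 0.364). Ephb3 and Cdc6 had the lowest log2 fold change of their lists and do not stand for them. Of 38 immediate early genes 28 were negative and 10 positive, 9 were lower and 2 higher without overlap, and the median was -0.17. Atf3, a stress-induced transcription factor, had 33.2 and 26.4 in mid and 22.3 and 13.6 in high. The median of that list was 0.013, with 21 of 38 positive, without Cd73 mid replicate 2, and 0.012 with each position counted once. It was -0.26 without mid replicate 1 and -0.11 without high replicate 2. Of 42 genes of enterocyte identity and structure 4 were higher and 10 lower, of 32 genes of BMP and hedgehog signalling 2 were higher and 8 lower, and of 12 genes of villus bottom defence 3 were higher and 3 lower. Among 45 genes of topoisomerases and break repair 10 were higher and 8 lower, and among 73 ribosomal protein genes 13 and 12.

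Lists for other cells that a sort could hold were read for break ends in their genes, which report on no cell's expression. Summed break ends over 27 lymphocyte genes were 769 and 726 CPM in Cd73 mid and 884 and 755 in high, with 7 genes higher and 2 lower without overlap (16.6% and 17.2% over all genes) and a median log2 fold change of 0.16, which was 0.050 without Cd73 high replicate 1 and 0.24 without high replicate 2. Cd3e, a chain of the T cell receptor complex, had 7.96 and 8.05 CPM in mid and 16.7 and 13.6 in high, from 8 to 21 break ends per library. Cd8a, a coreceptor of cytotoxic T cells, had 4.42 and 3.45 CPM in mid and 12.5 and 5.11 in high, from 3 to 10 break ends per library. Of the 27 genes 18 were positive and 9 negative, the lowest at -0.86, so these 2 do not stand for the list. For tuft cell genes the counts were 5 higher and 4 lower of 20, for stromal and endothelial genes 2 and 4 of 25, for enteroendocrine genes 3 and 6 of 21, for goblet genes 1 and 3 of 12, and for Paneth genes 1 and 0 of 4. The higher Paneth gene, Mmp7, passed edgeR's filter on low counts only with the high libraries counted, so it is not read as a result. Of 12 Paneth genes on chromosomes 1 to 19, 4 passed that filter. The part of other cells in the results was not tested. Of 1100 olfactory receptor genes, which the gut is not known for, 81 passed the filter on low counts for gene bodies and 116 for borders. A gene could pass that filter on any 2 libraries, those of 1 sort included, so counts over the members that passed are not read as a result. Of the 81 bodies 12 were higher and 12 lower, with a median of 0.22 (0.049 without Cd73 high replicate 1), and of the 116 borders 54 were higher and 7 lower (17% and 19.2% of all borders), with a median of 0.54.

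**Figure D4:**
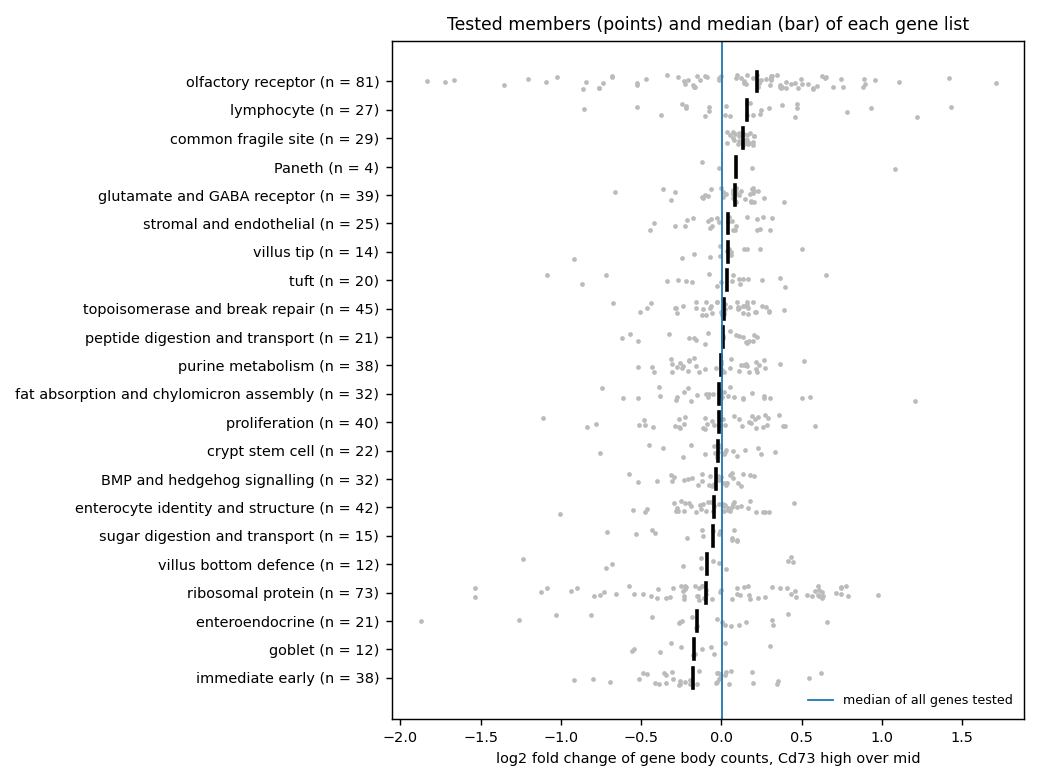
Log2 fold change of gene body break ends, Cd73 high over mid, for the tested members of 22 gene lists (grey points) with the median of each list (black bar) and that of all tested genes (blue line). All list medians lie between -0.17 and 0.22, and all 29 points of the common fragile site genes lie right of 0; without Cd73 mid replicate 2, 20 of 29 were positive.

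Very long genes were slightly higher in Cd73 high, by an amount that rested mostly on 1 mid library. All 29 tested genes of common fragile sites, which are long genes known to break under replication stress, had a positive log2 fold change, with a median of 0.14 and groups not overlapping in 15, all of them higher (16.6% of all gene bodies). Without Cd73 mid replicate 2, 20 of the 29 were positive, with a median of 0.037, and without mid replicate 1 all 29 were, with a median of 0.24. With each position counted once the median was 0.083. Rbfox1, which encodes a regulator of splicing, had 1118 and 928 CPM in Cd73 mid and 1163 and 1193 in high (log2 fold change 0.20, SE 0.130). Long genes outside the list gave like values: of 35 others over 1 Mb, 34 were positive with a median of 0.14, and of 151 others between 500 kb and 1 Mb, 138 were positive with a median of 0.11. Without Cd73 mid replicate 2 these were 26 of 35 (median 0.039) and 84 of 151 (0.014), and without mid replicate 1 they were 35 of 35 (0.22) and 148 of 151 (0.20). Of 14933 genes under 100 kb, 46.8% were positive. None of these genes passed the test. Of 39 genes of glutamate and GABA receptors, also long, 12 were higher and 4 lower without overlap (16.6% and 17.2% over all genes), with a median of 0.09. That median was 0.020, with 20 of 39 positive, without Cd73 mid replicate 2, 0.18 without mid replicate 1 and 0.027 with each position counted once. Gabrb2, a GABA receptor subunit, had 146 and 128 CPM in mid and 153 and 210 in high. As a share of all break ends, the 55 genes over 1 Mb held 2.56% and 2.39% in mid and 2.56% and 2.58% in high, and 2.42% and 2.28% in the negative libraries. The groups did not overlap, but replicate 1 of each sort was at 2.56%, and the difference lay mostly in mid replicate 2, the compared library with the highest share at gene starts. The genes between 500 kb and 1 Mb held 4.19% and 3.93% in mid and 4.18% and 4.14% in high, which overlap. With library size in place of TMM scaling, 53 of the 55 were positive, with a median of 0.10.

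Gene bodies split into 4 classes of equal size by length showed the counterpart. The class of longest genes held 68.5% and 65.5% of gene body break ends in Cd73 mid and 68.2% and 68.6% in high, and that of the shortest 4.60% and 5.64% in mid and 4.68% and 4.49% in high. Among the shortest, 11.0% of genes were higher and 23.996% lower without overlap, and among the longest 23.5% and 9.004%. By break density in the negative libraries, the class with most break ends per kb held 10.3% and 12.6% in mid and 10.497% and 10.001% in high, so the groups overlapped in sum while 25.4% of its genes were lower and 7.52% higher. In each of these classes mid replicate 1 lay beside the high libraries and mid replicate 2 apart from them.

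Whole chromosomes were alike. The share of break ends on each of the 19 chromosomes differed between the sorts by a ratio of 0.982 to 1.02. Chromosome 14 had 4.54% and 4.44% in Cd73 mid and 4.56% in each high library, the largest ratio. Groups did not overlap on 4 chromosomes that were higher (6, 9, 10 and 14) and 2 that were lower (5 and 19), and the exact permutation test (two-sided) gave p = 0.333 for these, 0.745 after adjustment over 19 chromosomes.

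Of gene bodies, gene borders and bins, the 100 kb bins were measured most precisely. Of 23606 bins, 0 passed the threshold by edgeR (0% called), 1099 had an unadjusted p under 0.05, and DESeq2 called 0, with 682 at an unadjusted p under 0.05. Both high libraries were above both mid libraries in 4038 bins (17.1%) and below them in 4043 (17.1%). The 95% interval of the fold change lay within 2-fold for 98.8% of bins and within 1.5-fold for 79.9%. The bin with the smallest p was on chromosome 8 from 41200001 to 41300000, which holds Fgl1, a liver-secreted fibrinogen-like protein, and part of Pcm1, of the centriolar satellites. It had 56.6 and 59.4 CPM in Cd73 mid and 34.0 and 34.2 in high (log2 fold change -0.77, SE 0.159, adjusted p = 0.181, from 0.0522 to 0.9989 over the alternatives). Of the bins higher in high, that on chromosome 1 from 31300001 to 31400000, with no protein-coding gene, had 28.3 and 26.0 CPM in mid and 47.4 and 42.2 in high (log2 fold change 0.73, SE 0.167, adjusted p = 0.498). A bin within Nlgn1, a synaptic adhesion gene (chromosome 3, 25700001 to 25800000), had 32.8 and 25.6 in mid and 46.7 and 47.8 in high. A bin within Dpp10 (chromosome 1, 124200001 to 124300000) had 28.1 and 28.8 in mid and 39.4 and 51.8 in high. The other bins named by the rule had log2 fold changes of 0.83 (chromosome 4, 113700001 to 113800000, within Skint5) and 0.70 (chromosome 10, 65600001 to 65700000, no annotated gene). The other lower ones, at -0.61 to -0.57, hold the Fc receptor genes Fcrlb, Fcrla and Fcgr2b, the surface sialomucin gene Cd34, the transcription factor gene Nfia and, on chromosome 5, non-coding RNA genes alone.

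A few break-rich places had the largest differences among the bins named here. Their bins on chromosome 14 (19400001 to 19500000), chromosome 9 (3000001 to 3100000) and chromosome 2 (98600001 to 98700000) had log2 fold changes of 0.97, 0.95 and 0.92, with an adjusted p of 0.989 each. With each position counted once, all 3 were called and were the only bins called, with adjusted p-values of 2.3e-09, 1.0e-07 and 0.0128. After thinning to equal depth edgeR called 0 bins, with each position counted once (smallest adjusted p 0.819, 1115 bins at an unadjusted p under 0.05) or with all break ends (0.892, 1107 bins). With the replicate number as a block the first 2 of them were called. These bins are named because an alternative called them, after their values were seen.

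These places were then resolved into 1 kb windows, chosen on the Cd73 negative libraries alone so that neither compared group decided which were tested. Of 19925 windows with at least 2 EPM in both negative libraries, 0 were called by edgeR (0% called), 1153 had an unadjusted p under 0.05 (114 higher and 1039 lower in Cd73 high), and DESeq2 called 0, with 394 at an unadjusted p under 0.05. The median window held 14 break ends per mid library and 3 per high library. The 95% interval of the fold change lay within 2-fold for 0.42% of windows and within 1.5-fold for 0%. A difference of 2-fold was therefore not excluded in nearly all of them. The median log2 fold change was -0.33 and the smallest adjusted p 0.0542. That median was -0.049 without Cd73 mid replicate 2, -0.52 without mid replicate 1 and -0.11 with each position counted once. Alternatives called from 0 to 15 windows, all of them higher in Cd73 high, and thinning to equal depth called 0, with 807 at an unadjusted p under 0.05. In sum these windows held 5.78% and 7.72% of break ends in mid and 5.90% and 5.41% in high, so the groups overlapped.

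Windows with at least 10 EPM in both negative libraries made up 114 loci, of which 8 were higher, 36 lower and 70 overlapping. The share without overlap was not counted over all dense windows, whose median log2 fold change was -0.33. The counts of loci are therefore not read as a result. The most break-rich locus is on chromosome 17 (39843001 to 39849000), at the ribosomal RNA pseudogene Rn18s-rs5 and the non-coding RNA gene AY036118. It had 2020 and 2104 EPM in Cd73 mid and 2106 and 1577 in high, so the groups overlapped, although counting each position once called 4 of its windows as higher. The next, on chromosome 2 (98662001 to 98668000, 4 windows, no annotated gene), had 398 and 534 EPM in mid and 866 and 957 in high. Its high mean was 1.96-fold the mid mean (912 ± 63.9 against 466 ± 96.4, SD, n = 2 each), and its negative libraries had 292 and 336. Its window from 98662001 to 98663000 gave the smallest p, with a log2 fold change of 1.37 (SE 0.292, 95% interval 0.80 to 1.94, adjusted p = 0.0542).

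Of the other loci, 4 with a large difference were of the same kind. On chromosome 14 (19416001 to 19420000, no annotated gene) mid had 107 and 157 EPM and high 254 and 266, a ratio of 1.97. On chromosome 9 (3000001 to 3028000, no annotated gene) mid had 65.3 and 84.6 and high 125 and 146, a ratio of 1.80. At the non-coding RNA gene Gm33838 on the same chromosome (35305001 to 35306000) mid had 184 and 251 and high 338 and 349, a ratio of 1.58. The Cdk5rap2 window described above had 33.6 and 39.1 in mid, 81.4 and 85.4 in high and 21.1 and 20.7 in the negative libraries, a ratio of 2.29. At all 5 loci the order was negative, then mid, then high without overlap, which is also the order of falling depth. The loci were picked for being higher in high than in mid, so that part of the order was set by the choice. Other rich places did not show that order. At Sfi1 on chromosome 11 (3186001 to 3200000), a gene of the centriole, mid had 173 and 203 and high 168 and 166 EPM. At the non-coding RNA gene Gm36876 (chromosome 11, 109011001 to 109012000) mid had 62.5 and 64.9 and high 56.5 and 57.2. Both were lower in high, with ratios of 0.887 and 0.893. The remaining 3 loci without overlap that were higher in high lay in Slc6a9, a glycine transporter, Gpx4, which reduces lipid peroxides, and Lratd2, with ratios of 1.17, 1.35 and 1.44.

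The higher counts at these loci were not held by a single position. After all libraries were thinned to 1240721 break ends, the locus on chromosome 2 had 498 and 716 break ends at 150 and 185 positions in Cd73 mid and 1075 and 1187 at 242 and 257 positions in high, and that on chromosome 14 had break ends at 97 and 117 positions in mid and 186 and 201 in high. The busiest single position of the chromosome 2 locus held 17.1% and 17.9% of its break ends in mid and 8.08% and 9.44% in high. At Sfi1 the thinned counts were 134 and 138 positions in mid and 136 and 147 in high. No genome sequence was used here, so how uniquely reads map to these places was not tested.

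**Figure D5:**
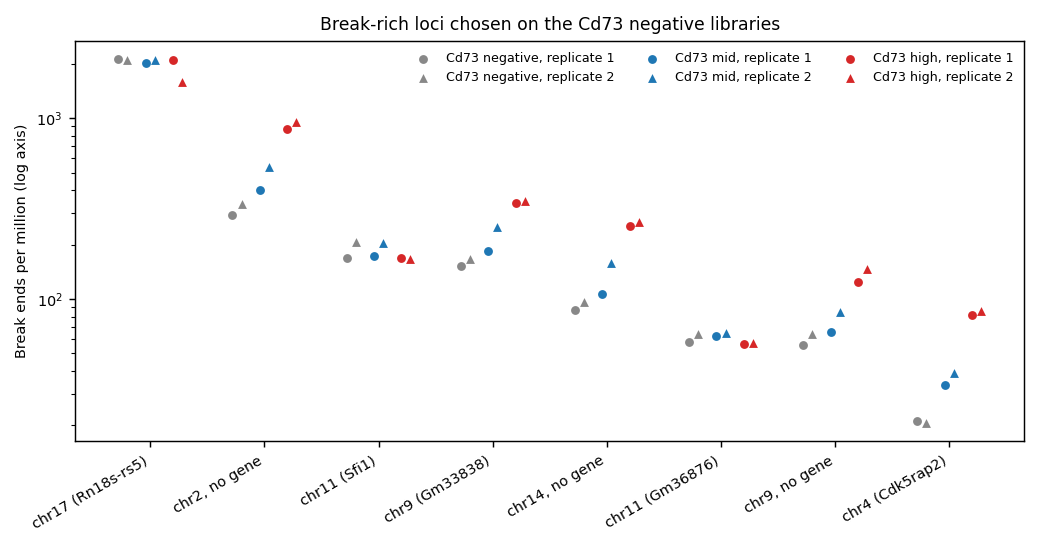
EPM, break ends per 1000000 of the library's total (log axis), at the 7 loci richest in break ends in the Cd73 negative libraries and at the window in Cdk5rap2; grey points are negative, blue mid and red high libraries, circles replicate 1 and triangles replicate 2. On chromosomes 2, 9, 14 and in Cdk5rap2 the high libraries lie 1.58-fold to 2.29-fold above mid, while at the 3 other loci, on chromosomes 17 and 11, they do not.

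Recurrence of break ends at the same base was lower in the shallower libraries. Of all break ends, 12.9% and 16.7% in Cd73 mid and 6.37% and 6.42% in high lay at a base listed with more than 1, and after thinning to equal depth 4.74% and 6.10% in mid and 5.57% and 6.42% in high, which overlap. At equal depth the 1000 densest 1 kb windows of the mid libraries shared 332, those of the high libraries 250, and those of a mid and a high library between 248 and 290. A high library thus shared about as many of its densest windows with a mid library as with the other high library.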

How the data were processed

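Each sBLISS library was deposited as a table of positions with the number of break ends at each, given as counts. The submitters' processing notes name BWA and the build GRCm38 for what the authors did before that. Per the labels' protocols, mildly lysed cells were blunted, ligated to an adapter, sonicated and amplified by in vitro transcription. Whether counts are reads or unique molecules is not given in the sources used here.

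From the deposited counts, break ends on chromosomes 1 to 19 were summed over RefSeq gene bodies (20661 protein-coding genes, 3705 overlapping another), over 1 kb on each side of both gene ends, and over 100 kb bins. They were tested with edgeR 4.0.16 (quasi-likelihood, TMM, filterByExpr) in a fit of all 6 enterocyte libraries over 3 groups, with the contrast high minus mid and Benjamini-Hochberg adjustment over all features of that kind. Intervals cover the fit's error at 95%. Exact permutation tests over the 4 compared libraries cannot give a p below 0.333. Promoters from RefSeq (GRCm38.p6) matched 81.7% of genes off chromosome 18 and gave their strand.

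Named are, by rule, the 10 gene bodies, 5 gene borders and 5 bins in each direction with the smallest p, among those whose groups did not overlap and with more than 5 break ends in a library. Members, rule and the 22 lists were chosen with earlier results of these data known. The 1 kb windows, gene starts and ends apart, promoter classes, profiles, break-rich loci and long gene classes were added after seeing the data. An earlier set of 1 kb windows, which could pass the filter through the high libraries alone, was dropped for that reason. As alternatives, all was repeated where possible with DESeq2 1.42.0, with library size as the scaling, without the filter, with thinning to 1240721 break ends, each position counted once, positions with over 100 left out, other feature sizes, the 4 libraries alone, X and Y added, a replicate block and leaving out each library. Scripts were tested on simulated data. A result on an item withheld for evaluation is not reported here.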

Additional observations from a re-analysis of the deposited data

Results flagged for a closer look

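Break ends on mitochondrial DNA and on contigs not placed on a chromosome entered none of the comparisons, and both were higher in both Cd73 high libraries. On mitochondrial DNA the Cd73 negative libraries had 91.7 and 56.8 EPM, mid 113 and 116, and high 190 and 336. The high mean was 2.29 times the mid mean (263 ± 103 against 115 ± 1.98, SD, n = 2 each, exact permutation p = 0.333), and the high libraries differed from each other by more than the lower of them did from mid. On the contigs the negative libraries had 666 and 739 EPM, mid 773 and 918, and high 1064 and 1259, a ratio of 1.37 (1162 ± 138 against 846 ± 102, exact permutation p = 0.333). Chromosome X, used in an alternative, overlapped, with a ratio of 1.02. The order on the contigs was negative, mid, high, as at the break-rich loci on chromosomes 2, 9 and 14. Those loci were picked for being higher in high, and whether contigs and loci bear on each other was not tested.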

How the results depend on the processing

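By edgeR, and by DESeq2 among the alternatives, 0 gene bodies (16 alternatives) and 0 gene borders (15) were called in every setting, with 238 to 1060 and 125 to 1048 at an unadjusted p under 0.05. DESeq2 also called 0 bins and 0 windows, with 682 and 394 at an unadjusted p under 0.05. Bins called were 2 at 1 Mb, 3 with each position counted once and 2 with the replicate block, and 0 to 1 when a library was left out (1, on chromosome 19, without Cd73 mid replicate 1). After thinning to equal depth, with all break ends or with each position counted once, edgeR called 0 bins (1107 and 1115 at an unadjusted p under 0.05) and 0 windows (807 and 767). Dense windows called were 15 with each position counted once, 2 with library size scaling, 5 without positions over 100, 4 with the replicate block and 3 at a minimum of 5 EPM. Leaving out a library gave 0 to 2 windows (2 without Cd73 high replicate 1, 1 without high replicate 2 or mid replicate 2, 0 without mid replicate 1). All calls were higher in Cd73 high, and the cause of the changes was not tested. In these fits the lone library of a group is assumed to vary like the other groups.

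The Nt5e body ranged from -0.11 without Cd73 high replicate 1 to 0.35 without high replicate 2. Its borders ranged from -0.66 to 0.42 over the left-out libraries and were also reversed, at -0.08, without mid replicate 2. The window at 39846001 on chromosome 17 turned to -0.040 when thinned with each position counted once and ranged from -0.016 to 0.57 over the left-out libraries. That at 109011001 on chromosome 11 turned to 0.78 with each position counted once. The share at positions with more than 1 break end, 8.43 percentage points lower in high, was 0.573 points higher after thinning. The 20 named gene bodies kept direction and call in 304 of 304 values, named borders with Nt5e in 150 of 152, and named bins in 177 of 182, the other 5 being newly called. Thinned fits test fewer features.

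Replicates of the same number did not deviate together between mid and high (correlation -0.050 over gene bodies, -0.015 over borders, -0.0011 over bins), whereas those of negative and mid did (0.34, 0.17 and 0.35) and those of negative and high did not (-0.048, 0.0024 and -0.015). The labels do not say what the numbers share, so they were not taken as pairs. With the replicate block 0 gene bodies and 0 borders were called and Nt5e stood at 0.16 (log2). The shallow high libraries limit the comparison: the median standard error of the log2 fold change was 0.288 for gene bodies, 0.489 for borders and 0.170 for bins. For the dense 1 kb windows it was 0.716.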
